A study of Mus musculus with 2 samples.

Results

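The 9 genes described here, Ank2, Ank3, Sptbn4, Nfasc, Nrcam, Cntn1, Cntnap1, Cntnap2 and Gldn, encode scaffold and adhesion proteins of the node of Ranvier and of the contacts between an axon and its glia. They were chosen by name from 39098 gene symbols, with earlier results of these data known, and all 9 had counts in both libraries. The RNA was measured in single cells of mouse trigeminal ganglia (TGs), which hold the cell bodies of the sensory neurons of the face, together with the satellite glial cells around them and the Schwann cells of their axons. The study asked how TG cells differ between normal mice and mice with orofacial inflammatory pain.

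Both groups were male mice of 5 to 8 weeks. Their strain was C57BL/6. The CFA group received 20 μL of complete Freund's adjuvant (CFA), an oil emulsion with killed mycobacteria that causes local inflammation, diluted in saline, into the right vibrissal pad. The control group is labelled untreated, whereas the study's methods describe an injection of saline. The right TG was taken 7 days later and dissociated with papain. Each group had 6 mice, and how many of them contributed to a library is not given. One BD Rhapsody library per condition was analysed, so no difference between control and CFA could be checked against replicates, no test was made, and the intervals below are 95% intervals of counting error that do not include the variation between animals.

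A node of Ranvier is the gap between neighbouring myelin sheaths where the axon holds its voltage-gated sodium channels. There, ankyrin-G (Ank3) binds the channels and the adhesion proteins neurofascin (Nfasc) and NrCAM (Nrcam), and it is tied to the actin skeleton by βIV-spectrin (Sptbn4). Gliomedin (Gldn), released by the microvilli of myelinating Schwann cells, binds neurofascin and NrCAM from outside. Next to the node, at the paranode, contactin-1 (Cntn1) and Caspr (Cntnap1) on the axon meet the glial form of neurofascin. Beyond it, at the juxtaparanode, Caspr2 (Cntnap2) holds potassium channels under the myelin. Ankyrin-B (Ank2) belongs to the same family as ankyrin-G and lies along the axon. In sensory ganglia, high levels of Nefh, the heavy neurofilament chain, mark the larger neurons whose axons are mostly myelinated, whereas most small neurons have unmyelinated axons wrapped by non-myelinating Schwann cells.

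On the mouse genome GRCm38 with the GENCODE M21 annotation, Ank2 lies at chr3:126921612-127499350 on the minus strand, Ank3 at chr10:69398773-70027438 on the plus strand and Sptbn4 at chr7:27356383-27447686 on the minus strand. Nfasc lies at chr1:132564690-132741797 on the minus strand, Nrcam at chr12:44328885-44601964 on the plus strand and Cntn1 at chr15:92051165-92341967 on the plus strand. Cntnap1 lies at chr11:101170523-101190724, Cntnap2 at chr6:45059357-47304213 and Gldn at chr9:54286486-54341786, all on the plus strand. The members range in span from 20.2 kb (Cntnap1) to 2245 kb (Cntnap2). The counts are of unique molecular identifiers (UMIs) summed per gene, so the neuronal and the glial form of neurofascin, or the forms of an ankyrin, were not separated, and levels were not compared between genes because no gene length enters them.

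The files held 7298 control and 4080 CFA cells with 48916096 and 22096268 UMIs, of which 6695 and 3661 cells passed the filters (150 or more genes, no more than 25% of counts mitochondrial). Both libraries shared 27 cell labels, where drawing at random from all label numbers up to the highest would give 33.7. Among the kept cells 22 labels were shared, and 2 of these pairs had the same class. No cell annotation was used. Clusters were named from markers, so each class name stands for cells "like" that type, and rebuilt names can differ from those of the study. Neurons numbered 813 and 418, myelinating Schwann cells 2111 and 1335, non-myelinating Schwann cells 721 and 220, satellite glial cells 1237 and 486, and oligodendrocyte-like cells 124 and 156, in the control and the CFA library. Neurons had a median of 43745 UMIs under control conditions and 36364.5 after CFA, against 1016 and 857 in myelinating Schwann cells. The name of the non-myelinating Schwann cells rests on 4 of 8 markers, none of which was among the 10 leading genes of the cluster, which was led by Emp1, C4b, Cdh19 and Gbp2. Of the satellite glial cells, 224 control and 2 CFA cells formed a cluster led by interferon-induced genes, with none of the class markers among its 10 leading genes.

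The members fell into a neuronal set, a glial set and a mixed set. Levels are given as CPM, that is, a gene's UMIs per 1000000 UMIs of its class, control first and CFA second. In both libraries 4 of the 9 members had their highest level in neurons among the 9 compared classes, namely Ank2, Sptbn4, Cntnap1 and Cntnap2, where 20.3% of the 16221 genes compared did so. The highest non-neuronal level was in a Schwann cell class in both libraries for 2 of 9, Ank3 and Gldn, against 9.24% of the same genes. Because neurons held most of the UMIs, they supplied most counts of 8 members in the control library (57.9% for Nfasc to 99.1% for Cntnap2), while 75.4% of Gldn counts came from myelinating Schwann cells. In the CFA library the neuron shares of these 8 were 44.7% to 99.5%, and 86.7% of Gldn counts came from myelinating Schwann cells.

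**Figure D1:**
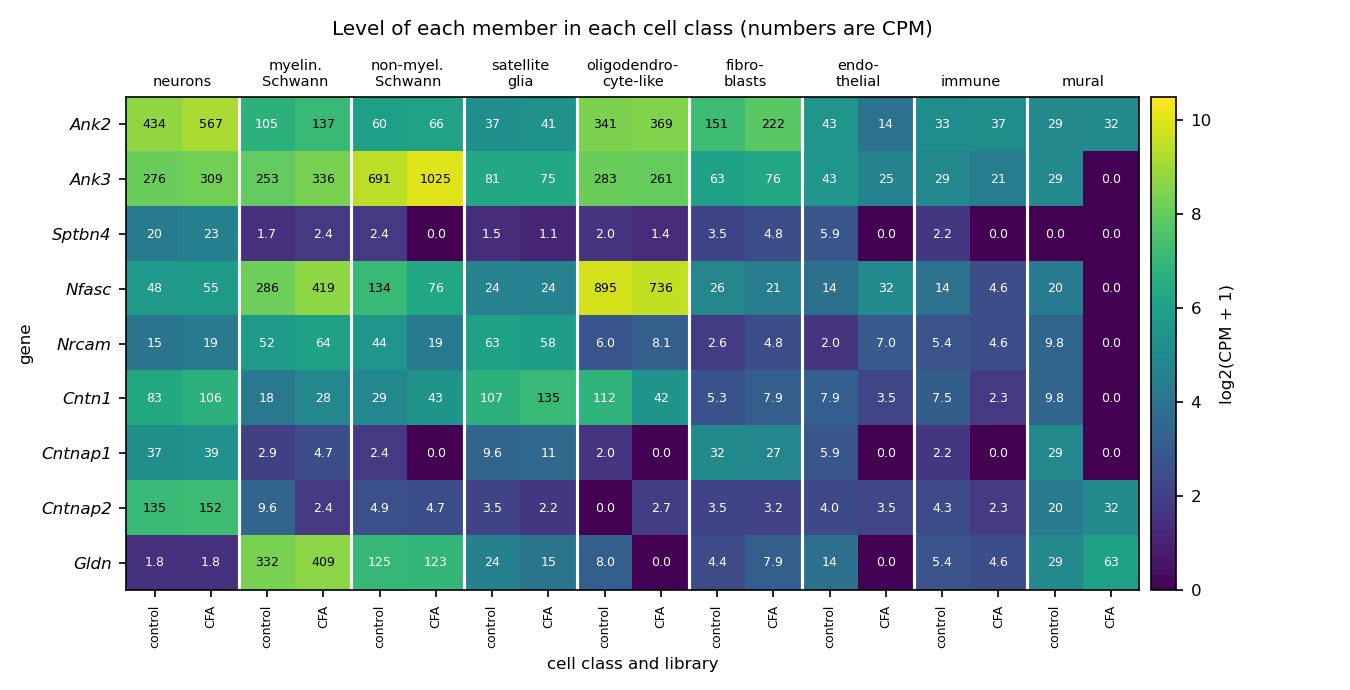
Level of each member (rows) in 9 cell classes, with the control and the CFA library side by side. Colour gives log2(CPM + 1) and the printed number gives CPM. Ank2, Sptbn4, Cntnap1 and Cntnap2 are highest in neurons, Ank3 in non-myelinating Schwann cells, Nfasc in oligodendrocyte-like cells and Gldn in myelinating Schwann cells.

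Among the scaffold genes, neurons had an Ank2 level of 434 CPM (interval 427 to 440) under control conditions and of 567 CPM (interval 555 to 578) after CFA. Oligodendrocyte-like cells followed with 341 and 369 CPM, then fibroblasts with 151 and 222 CPM and myelinating Schwann cells with 105 and 137 CPM. Each of these steps had an interval above 0 on the log2 scale in both libraries, so the order was the same. Non-myelinating Schwann cells, at 59.7 and 66.1 CPM, could not be told from the class below them.

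Ank3 had another order. Non-myelinating Schwann cells led with 691 CPM (interval 635 to 750, control) and 1025 CPM (interval 893 to 1171, CFA), which was above the next class by 1.29 and 1.61 on the log2 scale. Neurons (276 and 309 CPM), myelinating Schwann cells (253 and 336 CPM) and oligodendrocyte-like cells (283 and 261 CPM) lay close together below them, and their order differed between the libraries. Cells with at least 500 UMIs were thinned to 500 UMIs to compare detection outside neurons. Ank3 was then found in 27.6% (24.3 to 31.0) of 718 control and 39.4% (32.9 to 46.3) of 218 CFA non-myelinating Schwann cells, and in 11.8% and 15.0% of myelinating Schwann cells. In immune cells, which served as background, it was found in 1.46% and 0.402%. Without thinning the shares were 43.3% and 51.8% in non-myelinating Schwann cells and 5.30% and 3.61% in immune cells, whose median depth was 1775 and 1549 UMIs against 1028 and 881.5 UMIs.

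Sptbn4 was low and neuronal. It was at 19.8 CPM (18.4 to 21.2) in control neurons and 23.3 CPM (21.1 to 25.8) in CFA neurons. Myelinating Schwann cells had 4 and 3 counts in all. Non-myelinating Schwann cells had 2 counts in the control library and none in the CFA library, where a count of 0 allows up to 14.2 CPM (3 counts of the class total).

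The L1-family adhesion genes had their highest levels outside neurons when all neurons were pooled. Nfasc was highest in oligodendrocyte-like cells, at 895 and 736 CPM, and second in myelinating Schwann cells, at 286 CPM (265 to 308) and 419 CPM (384 to 456). Neurons had 48.2 and 54.7 CPM. After thinning to 500 UMIs, Nfasc was found in 12.8% of control and 18.9% of CFA myelinating Schwann cells and in 0.485% and 0.402% of immune cells. The unthinned shares were 24.9% and 30.0%, against 2.65% and 0.803%.

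Nrcam was highest in satellite glial cells (63.3 and 58.3 CPM) and myelinating Schwann cells (52.3 and 64.1 CPM), and these classes were not separated in either library. Neurons had 15.5 and 19.2 CPM. In myelinating Schwann cells Nfasc was thus at 593% and 765% of its level in pooled neurons, and Nrcam at 338% and 334%. In the large A-fibre neurons without Trpm8 (NF neurons, described below) Nrcam was higher than in these glial classes in both libraries, and Nfasc was not.

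Of the paranodal genes, Cntn1 was shared by neurons and satellite glial cells. It was at 82.9 CPM (80.0 to 85.8) and 106 CPM (101 to 111) in neurons, and at 107 CPM (94.7 to 120) and 135 CPM (113 to 162) in satellite glial cells, where it was higher than in neurons by 0.37 (0.18 to 0.54) and 0.35 (0.08 to 0.62) on the log2 scale. These neuron levels pool all neuron classes. In NF neurons and in the Trpm8 (cold) neurons described below, Cntn1 was higher than in satellite glial cells in both libraries. Non-myelinating Schwann cells had 29.2 and 42.5 CPM and myelinating Schwann cells 18 and 27.7 CPM. In oligodendrocyte-like cells the level was 112 and 41.9 CPM, but it came from 56 counts in 7 of 124 cells and 31 counts in 5 of 156 cells. An unnamed cluster of 13 and 18 cells, led by genes of oligodendrocyte precursors such as Olig1, Olig2 and Gpr17, held 2703 CPM (2246 to 3225) and 3156 CPM (2715 to 3647) of Cntn1. That was the highest level of Cntn1 in any class or unnamed cluster examined.

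Cntnap1 was at 36.8 and 39.3 CPM in neurons. Fibroblasts, at 31.5 and 27.0 CPM (36 and 17 counts), were not separated from them, with a neuron over fibroblast difference of 0.22 (−0.25 to 0.74) and 0.54 (−0.15 to 1.33) on the log2 scale. Myelinating Schwann cells were at 2.93 and 4.75 CPM from 7 and 6 counts. Cntnap2 was at 135 CPM (132 to 139) and 152 CPM (146 to 158) in neurons and at 9.63 and 2.37 CPM in myelinating Schwann cells. It was therefore the member with the largest share of its counts in neurons in both libraries.

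Gldn, the glial ligand, was nearly absent from neurons. Myelinating Schwann cells held 332 CPM (310 to 356) and 409 CPM (375 to 446), which was above non-myelinating Schwann cells by 1.41 (1.11 to 1.72) and 1.74 (1.17 to 2.36) on the log2 scale. Neurons held 1.84 CPM from 71 counts and 1.79 CPM from 30 counts. After thinning to 500 UMIs, Gldn was found in 14.8% (13.3 to 16.4) and 17.3% (15.3 to 19.5) of myelinating Schwann cells and in none of 412 control and 0.402% of 249 CFA immune cells. At this depth, 0 of 412 cells allows a share of cells with a UMI of up to 0.728% (3 counts of the total), and the upper Clopper-Pearson bound was 0.891%. Without thinning the shares were 26.4% and 27.5% against 0.482% and 0.803%.

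RNA of broken cells reaches other cells in such libraries, so each level was set beside markers of the likely source. In myelinating Schwann cells the 10 neuron markers stood at 3.67% to 7.80% of their neuron level in the control library and at 1.66% to 3.8% in the CFA library. Ank2 (24.2% in both), Cntn1 (21.7% and 26.2%) and Ank3 (91.9% and 108%) lay above that range with their whole intervals in both libraries. The markers are of neurons only, so stray RNA from other classes, such as Cntn1 RNA of satellite glial cells, was not tested. Sptbn4 and Cntnap2 had intervals that reached into the range in both libraries, so a Schwann cell source of these was not detectable at this depth. For Cntnap1 the interval reached into the range in the control library (7.97%, 3.20 to 16.4) and lay above it in the CFA library (12.1%, 4.44 to 26.3). These values rested on 7 and 6 counts, so a Schwann cell source of Cntnap1 was not shown. In satellite glial cells, Cntnap2 lay inside or overlapped the range (2.56% and 1.45%, markers 2.55% to 4.85% and 0.716% to 2.74%), and Cntnap1 was above it (26.2% and 28.0% from 25 and 10 counts). In endothelial cells the intervals of Ank3 (9.89 to 23.9 and 3.20 to 16.4) also lay above the neuron markers (up to 5.81% and 1.78%). Ank2 did so there in the control library only, and Cntn1 in neither library. A level above the range therefore does not by itself show a source in the class.

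**Figure D2:**
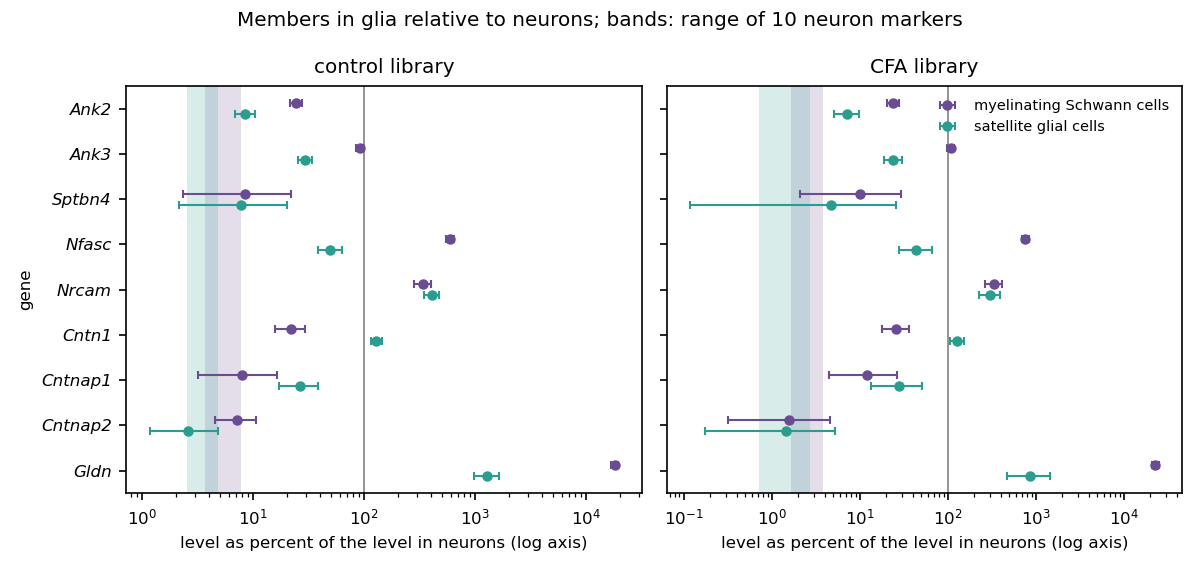
Level of each member in myelinating Schwann cells and satellite glial cells as a percentage of its level in neurons, on a log axis, for the control (left) and the CFA library (right). Bars are 95% intervals of counting error in the glial class, the line marks 100%, and shaded bands in the colour of the class span the 10 neuron markers. Nfasc, Nrcam and Gldn lie above 100% in myelinating Schwann cells in both libraries, and Cntnap2 lies at or near the band.

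The same comparison was made for RNA of myelinating Schwann cells. In neurons, Gldn was at 0.553% and 0.437% of its level in those cells. Their 10 markers were at 0.164% to 5.42% in the control and at 0.0891% to 6.14% in the CFA library, with medians of 0.515% and 0.378%, so Gldn in neurons was at the level of that background. Nfasc in neurons was above it, at 16.9% and 13.1%. In non-myelinating Schwann cells, Gldn was at 37.7% and 30.0% and Nfasc at 46.8% and 18% of the myelinating level. The 10 myelin markers were at 25.7% to 57.5% and at 16.5% to 55.4% there, so both genes lay within their range. Ank3 was outside it, at 273% and 305%.

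In neurons, 7 of the 9 members were at a higher level where Nefh was high. Neurons with at least 10000 UMIs were divided by their Nefh level into bins of under 50, 50 to under 200, 200 to under 800 and at least 800 CPM. They held 136, 425, 139 and 49 neurons in the control and 85, 180, 81 and 32 in the CFA library. The members and Nefh itself were left out of the clustering. The highest bin exceeded the lowest by at least 1 on the log2 scale in both libraries for Sptbn4, Nfasc, Nrcam, Cntn1, Cntnap1, Cntnap2 and Gldn, where 7.02% of 14493 genes did so. No member was lower by as much, against 10.4% of the genes. The median member was higher by 2.01 and 2.00, beside a median of −0.034 and −0.045 over all genes.

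The paranodal pair differed most between the bins. Across the control bins, Cntnap1 was at 19.7, 17.5, 49.5 and 201 CPM, and across the CFA bins at 17.1, 20.6, 49.8 and 197 CPM. The highest bin was above the lowest by 3.36 (3.07 to 3.65) and 3.52 (3.11 to 3.95) on the log2 scale. The level lay close together in the lower bins and was higher from the third. Cntn1 had the same form in the control library, with 53.5, 49.2, 90.1 and 404 CPM. In the CFA library Cntn1 was higher at each step, with 42.5, 57.2, 133 and 520 CPM. Its highest bin was above its lowest by 2.92 (2.74 to 3.10) and 3.61 (3.35 to 3.88).

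Sptbn4, the spectrin that ankyrin-G is tied to, went from 12.5 to 17.2, 22.0 and 50.7 CPM in the control and from 15.1 to 18.4, 30.2 and 60.4 CPM in the CFA library. Nfasc was at 38.1, 37.0, 65.7 and 118 CPM and at 36.5, 34.3, 90.9 and 143 CPM. Nrcam was at 13.6, 9.84, 19.8 and 54.7 CPM and at 13.7, 12, 17.2 and 87.8 CPM, although 1 neuron supplied 32.1% of its counts in the highest CFA bin and 1 supplied 23.2% in the highest control bin. These genes were thus highest in the top bin of both libraries. Cntnap2 was higher at each step, going from 93 to 112, 182 and 311 CPM and from 108 to 127, 198 and 312 CPM. The difference for Gldn, 2.14 (0.62 to 3.84) and 2.78 (0.17 to 6.17), rested on 12 against 6 and 5 against 2 counts, at levels within the Schwann cell background given above.

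The ankyrins did not follow. Ank2 was at 395, 454, 425 and 278 CPM across the control bins, and at 568, 563, 567 and 550 CPM across the CFA bins, a difference between the outer bins of −0.51 (−0.63 to −0.39) and −0.05 (−0.17 to 0.08) on the log2 scale. Ank3 was at 295, 283, 252 and 171 CPM and at 334, 320, 271 and 265 CPM, a difference of −0.78 (−0.93 to −0.63) and −0.33 (−0.51 to −0.16). In the control library Ank3 was thus lowest in the top bin, where its partner Sptbn4 was highest. In the CFA library the upper bins of Ank3 were not separated by counting error, and over single neurons its median was 262, 241, 233 and 257 CPM from the lowest to the top bin. With every cell weighted equally, the difference between the outer CFA bins was −0.06.

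**Figure D3:**
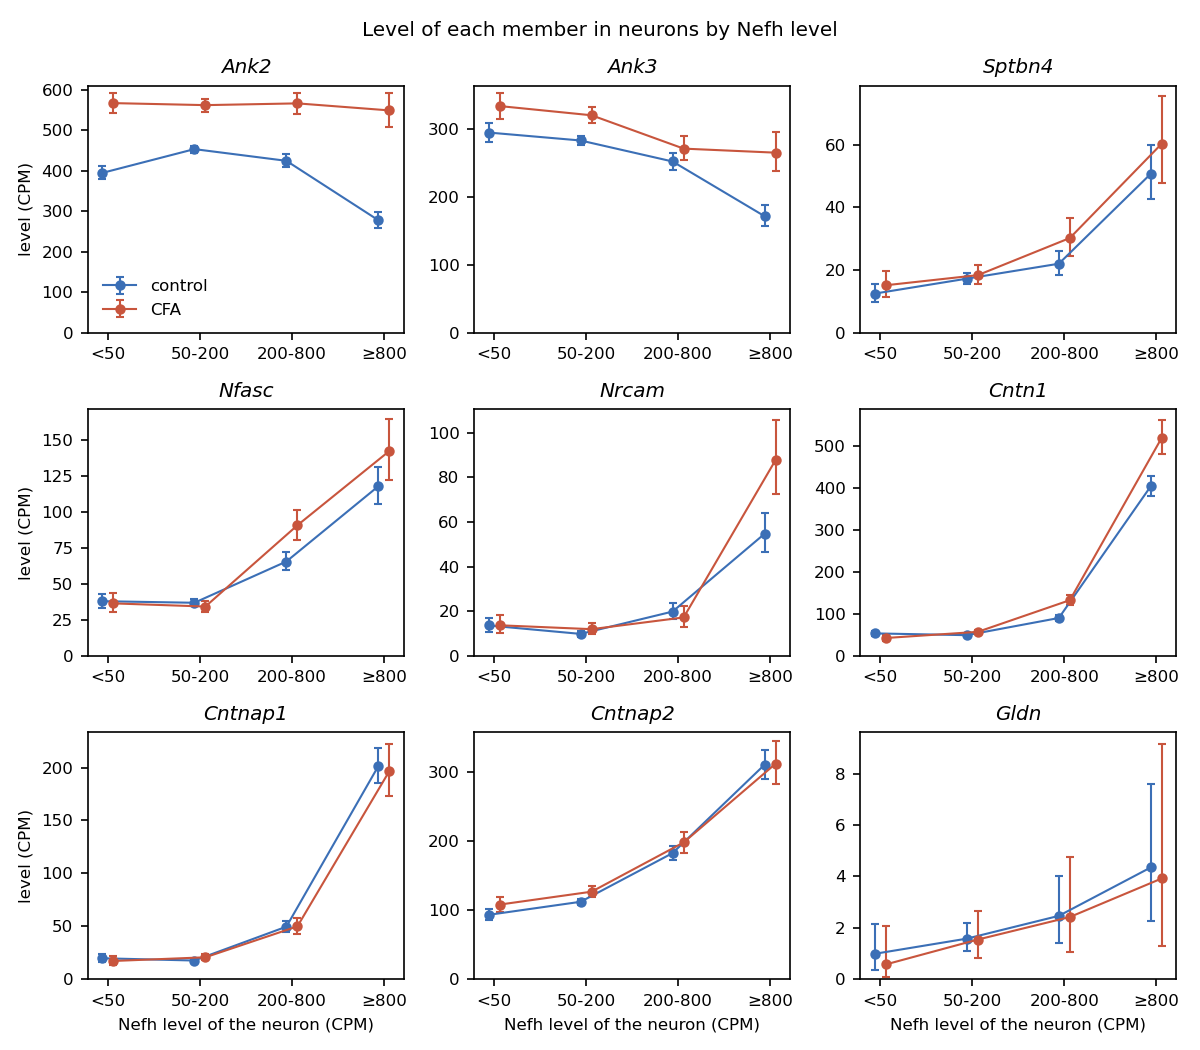
Level of each member in CPM (vertical axis, from 0, on its own scale in each panel) in neurons grouped by their Nefh level in CPM (horizontal axis), with the control library in blue and the CFA library in red. Bars are 95% Poisson intervals. Cntn1 and Cntnap1 are near flat over the lower bins and highest in the top bin, Ank3 is lowest there in the control library, and Ank2 is level in the CFA library.

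The top bin mixed several neuron types. Of its 49 control neurons, 34 were cold neurons, named from Trpm8 and other markers, 8 were NF neurons (large A-fibre neurons without Trpm8), 6 were Nefh-positive peptidergic neurons and 1 was a PEP1 neuron. Of its 32 CFA neurons, 22 were cold, 2 were NF and 8 were Nefh-positive peptidergic. The other classes were peptidergic neurons with Tac1 and Calca (PEP1) or with Sst and Nppb (PEP2), nonpeptidergic neurons with Mrgprd (NP1) or Mrgpra3 (NP2), and C-fibre low-threshold mechanoreceptors (cLTMR). NF neurons numbered 18 and 6, cold neurons 61 and 37, and Nefh-positive peptidergic neurons 53 and 37. PEP1 numbered 198 and 104, PEP2 12 and 11, cLTMR 75 and 48, NP1 178 and 65, and NP2 53 and 16. A further 165 and 94 neurons stayed unnamed.

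NF and cold neurons had like Nefh levels, 1327 and 1318 CPM in the control and 1383 and 1352 CPM in the CFA library, yet differed in 3 members in both libraries. Cntn1 was at 661 CPM (601 to 724) and 801 CPM (710 to 901) in NF neurons and at 298 and 338 CPM in cold neurons, a difference of 1.15 (0.98 to 1.32) and 1.24 (1.02 to 1.47) on the log2 scale. Nrcam, the partner of neurofascin, was at 84.4 and 153 CPM in NF and at 21.2 and 28.3 CPM in cold neurons, a difference of 2.00 (1.44 to 2.55) and 2.44 (1.79 to 3.11). In the CFA library 69.2% of the NF counts of Nrcam in neurons of at least 10000 UMIs came from 1 neuron. Over single NF neurons the median of Nrcam was 74.1 and 79.5 CPM, and over cold neurons it was 0 in both libraries. Ank3 went the other way, at 90.2 and 150.4 CPM in NF and 240.1 and 304 CPM in cold neurons, a difference of −1.41 (−1.81 to −1.03) and −1.02 (−1.46 to −0.59). For Cntnap1 the difference was −0.18 (−0.49 to 0.12) and 0.37 (−0.05 to 0.77), and these classes were not separated.

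Between NF and NP1 neurons, 7 of the 9 members were higher in NF by at least 1 on the log2 scale in both libraries, against 11.8% of 14493 genes. The difference was 5.60 and 6.92 for Nrcam, 4.37 and 4.49 for Nfasc, and 4.39 and 4.15 for Cntnap1. Cntn1 (2.94 and 2.95), Sptbn4 (1.72 and 2.49) and Cntnap2 (1.39 and 1.78) followed, and Gldn made the seventh on 3 counts in NF neurons of each library. Ank2 (−1.56 and −0.56) and Ank3 (−2.03 and −1.46) were lower in NF. NP1 neurons held 1.74 and 1.26 CPM of Nrcam from 20 and 5 counts, and 6.54 and 7.07 CPM of Nfasc.

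**Figure D4:**
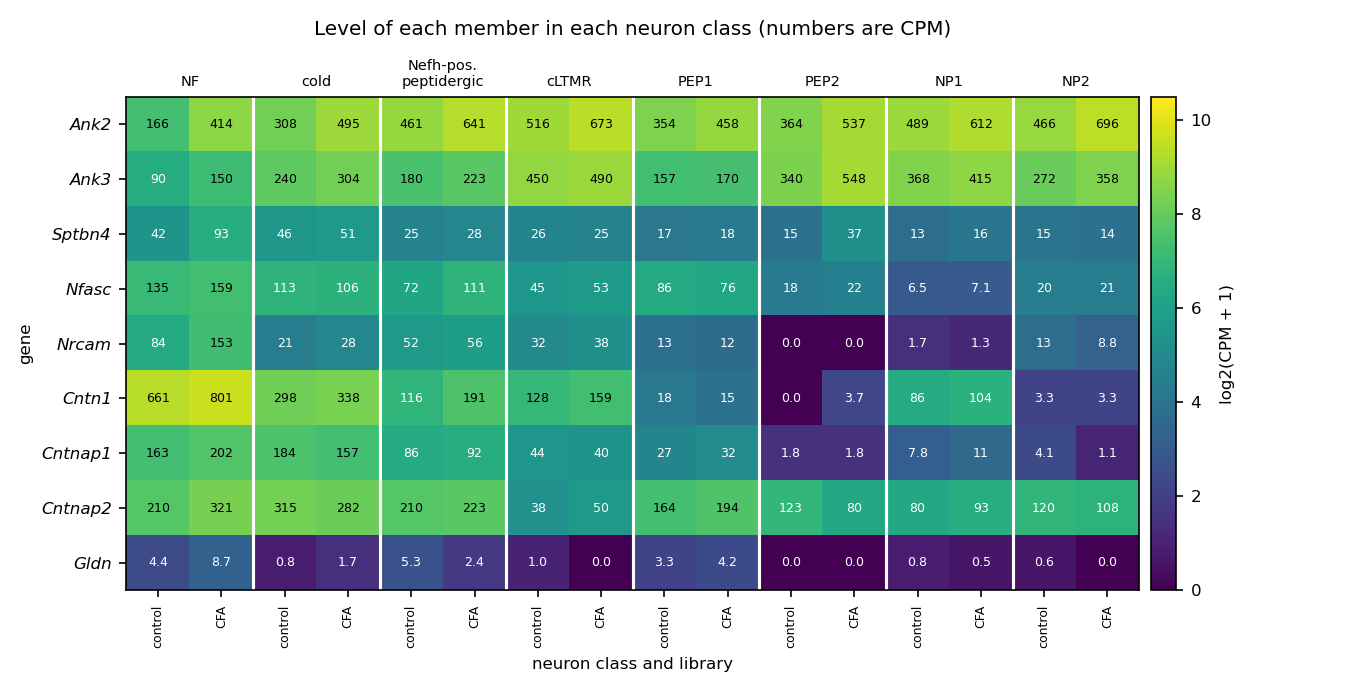
Level of each member (rows) in 8 neuron classes, with the control and the CFA library side by side. Colour gives log2(CPM + 1) and the printed number gives CPM. Cntn1 is highest in NF neurons and at most 17.6 CPM in PEP1, PEP2 and NP2 neurons, Cntnap2 is lowest in cLTMR, and Ank2 and Ank3 are lowest in NF neurons.

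The classes with little Nefh differed among themselves. Cntn1 was at 128 and 159 CPM in cLTMR and at 86.3 and 104 CPM in NP1, but at 17.6 and 14.7 CPM in PEP1, 3.31 and 3.32 CPM in NP2 and at 0 and 2 counts in PEP2. Their Nefh levels were 84.3 and 91.7 CPM in cLTMR, 113 and 122 CPM in NP1, 138 and 132 CPM in PEP1, 128 and 76.3 CPM in NP2, and 62.5 and 40.2 CPM in PEP2. Cntn1 in these classes did not follow the order of Nefh. Over single neurons the median of Cntn1 was 124 and 121 CPM in cLTMR and 79.0 and 63.5 CPM in NP1, and 0 in PEP1, PEP2 and NP2 of both libraries.

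Cntnap2 had its lowest level in cLTMR, at 38.2 and 50.2 CPM, with 80.1 and 93.5 CPM in NP1, 164 and 194 CPM in PEP1 and 315 and 282 CPM in cold neurons. Ank3, in contrast, was high in cLTMR (450.0 and 490 CPM) and low in PEP1 (157 and 170 CPM). Caspr2 and ankyrin-G RNA thus had opposite places in cLTMR and PEP1. This did not extend to cold neurons, which had more of both than PEP1 in both libraries. Nfasc was high in PEP1 for a class with little Nefh, at 85.8 and 75.9 CPM, and this came unevenly from its clusters, since 1 of them (87 and 32 neurons) had 141 and 160.1 CPM and another (89 and 70 neurons) had 14.6 and 18.1 CPM.

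Within Nefh-positive peptidergic neurons the paranodal genes again went with Nefh. Neurons below and from 200 CPM of Nefh numbered 23 and 25 in the control and 13 and 15 in the CFA library. Cntn1 was at 2.72 CPM (0.561 to 7.95) below and 204 CPM (181 to 230) above in the control library, and after CFA at 62.2 CPM (43.3 to 86.5) below and 280.0 CPM (241 to 324) above. In the whole class, 1 neuron supplied 30.3% of the control and 1 supplied 16.1% of the CFA counts of Cntn1. Over single neurons of both Nefh groups together, the median of Cntn1 was 0 in the control and 13.7 CPM in the CFA library. Cntn1 had a UMI in 19 of 48 and 15 of 28 of them. Cntnap1 was at 21.8 and 139 CPM in the control and at 39.1 and 143 CPM in the CFA library. Nrcam went from 19.1 to 79.7 CPM and from 16.0 to 92.3 CPM, and Nfasc from 33.6 to 98.4 CPM and from 39.1 to 172 CPM. The leading neuron of the class supplied 15.2% of the control and 29.6% of the CFA counts of Cntnap1. For Nrcam it supplied 27.3% and 23.2%. In PEP1 neurons Cntn1 was at 9.98 and 56.2 CPM in the control and at 3.45 and 58.9 CPM in the CFA library. In NP1 neurons Cntn1 was also higher with more Nefh (82.4 and 139 CPM, 82.1 and 234 CPM), and Cntnap1 was not (7.99 and 3.48 CPM, 12.8 and 1.78 CPM).

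Between the libraries, no member differed in neurons by 0.5 or more on the log2 scale in either direction, where 12.2% of 14493 genes with at least 50 counts did so. The CFA library was nonetheless above the control library for 8 of 9 members, against 49.5% of all genes, with a median of 0.18 beside −0.003 over all genes. Of the members, 5 span over 200 kb, and of the 804 genes of that span 58.6% were above 0, with a median of 0.054. Ank2 was higher by 0.39 (0.35 to 0.42), Cntn1 by 0.35 (0.27 to 0.44), Nrcam by 0.31 (0.11 to 0.51) and Sptbn4 by 0.24 (0.06 to 0.42). Nfasc (0.18), Ank3 (0.17) and Cntnap2 (0.16) were higher by less, with intervals above 0. For Cntnap1 (0.09, −0.04 to 0.23) and Gldn (−0.04, −0.71 to 0.59) the interval held 0. With every cell weighted equally the difference was smaller for Ank2 (0.24), Nfasc (0.12), Nrcam (0.075), Ank3 (0.028) and Cntnap1 (−0.008). It was larger for Cntn1 (0.42) and Cntnap2 (0.18), and Gldn was at 0.27. In the same neurons Malat1 was at 1017 CPM (control) and 674 CPM (CFA), and mitochondrial counts made up 2.42% and 2.66%. Their part in the difference was not tested.

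**Figure D5:**
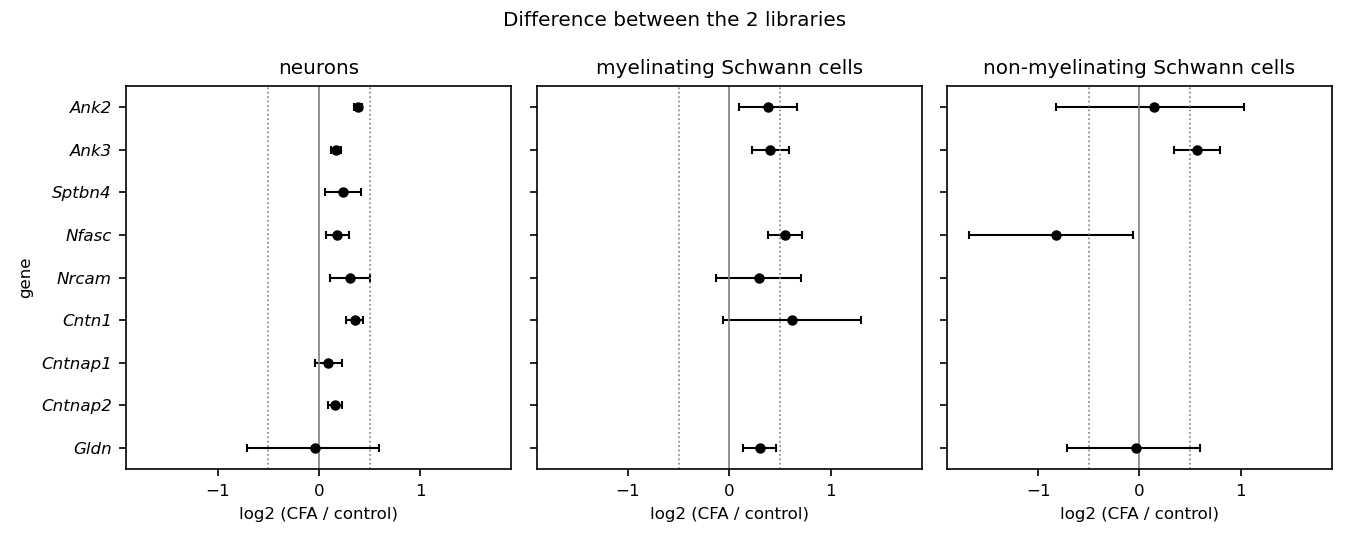
Log2 ratio of the CFA over the control library for each member in neurons, myelinating Schwann cells and non-myelinating Schwann cells, with 95% intervals of counting error, for members with at least 50 counts in the class. Dotted lines mark 0.5 in each direction. In neurons the points lie between −0.04 and 0.39, and Nfasc lies above 0 in myelinating and below 0 in non-myelinating Schwann cells.

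The difference of Ank2 was present in all 8 neuron classes and all 4 Nefh bins. It ranged over the classes from 0.32 (0.25 to 0.39) in NP1 and 0.37 and 0.38 in PEP1 and cLTMR to 0.68 (0.53 to 0.84) in cold neurons and 1.32 (0.95 to 1.69) in NF neurons. Over the Nefh bins, in a comparison added after seeing the data, it was 0.52, 0.31, 0.42 and 0.98 (0.83 to 1.13). Over single neurons of the top bin the median of Ank2 was 242 CPM in the control and 558 CPM in the CFA library. The quartiles were 168 to 374 and 388 to 708 CPM. These neurons came from 1 library per condition and are not replicates. The class mix of the bin also differed between the libraries, as given below. Among NF neurons with at least 10000 UMIs, the 13 control neurons lay between 38.0 and 595 CPM with a median of 161 CPM, and the 5 CFA neurons between 163 and 595 CPM with a median of 473 CPM. These ranges overlapped.

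In the top Nefh bin 3 of 8 members with at least 50 counts were higher in the CFA library by at least 0.5, where 6.65% of genes were. They were Ank2, Nrcam (0.68, 0.32 to 1.04) and Ank3 (0.63, 0.42 to 0.83). As given above, a large part of the Nrcam counts of this bin came from 1 neuron in each library, which the interval does not cover. In that bin mitochondrial counts made up 3.31% under control conditions and 4.57% after CFA, and the median depth was 53739 and 34929.5 UMIs. The mix of classes also differed, with 8 of 49 control and 2 of 32 CFA neurons being NF neurons, in which Ank3 was lower than in cold neurons. Within cold neurons the ratio of Ank3 was 0.34 (0.15 to 0.53). The part of mix, mitochondrial share and depth in the result was not tested. In the bin of 200 to under 800 CPM, Cntn1 passed (0.56, 0.37 to 0.74) against 6.60% of genes, and in the lowest bin Ank2 did against 5.08%. In the bin of 50 to under 200 CPM no member passed, against 6.05%. Among NF neurons 5 of 8 passed against 14.4%, with only 18 and 6 neurons behind them. For these 5, the leading CFA neuron of at least 10000 UMIs supplied 28.8% (Ank3) to 69.2% (Nrcam) of the counts in such neurons. The median of Nrcam over single NF neurons was 74.1 CPM in the control and 79.5 CPM in the CFA library. Among cold neurons 1 of 8 passed, Ank2, against 5.25%. In none of these neuron groups did a member fall by 0.5 or more, where 5.89%, 6.57%, 7.11% and 9.04% of genes did in the bins from low to high Nefh, 12.2% in NF and 8.91% in cold neurons.

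In myelinating Schwann cells, 2 of the 6 members with at least 50 counts were higher in the CFA library by 0.5 or more, against 11.7% of 7612 genes, and none was lower by as much, against 9.96%. Nfasc was higher by 0.55 (0.38 to 0.72), from 286 to 419 CPM. Cntn1, on 43 and 35 counts, was higher by 0.62 with an interval that held 0 (−0.07 to 1.30). Ank3 (0.41, 0.22 to 0.59), Ank2 (0.38, 0.09 to 0.67) and Gldn (0.30, 0.14 to 0.46) were higher by less, and for Nrcam (0.29, −0.13 to 0.71) the interval held 0. The median of the 6 was 0.39, beside 0.041 over all genes. Ratios were higher for genes with a longer span, and 4 of the 6 members span over 200 kb. Of the 337 genes of that span tested in these cells, 67.7% were above 0 and 19.6% were higher by 0.5 or more, with a median of 0.181. The RNA of other sources moved as well. The 10 neuron markers summed to 798 and 419 CPM in these cells, and the 10 myelin markers to 94956 and 82423 CPM. Of the myelin markers 7 were lower with an interval below 0 and 2 higher with an interval above 0. Malat1 was at 3705 and 2223 CPM. Ank2 was the member that changed sign with another clustering, at −0.35 with 30 principal components, where its level was 304 and 238 CPM.

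In non-myelinating Schwann cells, 4 members had at least 50 counts. Ank3 was higher in the CFA library by 0.57 (0.34 to 0.80), where 14.9% of 3938 genes were higher by 0.5 or more. Nfasc was lower by 0.83 on the log2 scale (−1.68 to −0.06), from 110 to 16 counts and from 134 to 75.6 CPM, where 16.5% of genes were lower by as much. Ank2 (0.15) and Gldn (−0.03) had intervals that held 0. Without the mitochondrial limit Ank2 was at 1.30 and Nfasc at −0.002, so neither of these values was stable to that filter. The cells were clustered anew there and the class held 1336 control and 349 CFA cells, so these values are not of the same cells. The makeup of the class also depended on the clustering. In the main clustering, leaving out interferon-led clusters kept all 721 control and 220 CFA cells. At higher resolution the class held 944 control and 218 CFA cells, and 612 and 209 without interferon-led clusters. The part of such cells, mostly from the control library, in the differences was not tested. Over the same cells the 10 myelin markers summed to 34791 and 23783 CPM, and the 8 markers of the class to 3396 and 5724 CPM, 4 of them higher with intervals above 0. These sums moved in the same directions as Nfasc and Ank3, but not every marker did. Scn7a alone went from 2234 to 4156 CPM, and 2 of the 8 class markers were lower in the CFA library. Of the myelin markers 8 were lower, while Mal (0.28) and Egr2 (0.44) were higher with intervals above 0. The part of these markers in the differences was not tested. Elsewhere, Cntn1 was lower in oligodendrocyte-like cells of the CFA library by 1.42 on the log2 scale (−2.11 to −0.77) on the few cells named above, Nfasc there by 0.28 (−0.46 to −0.10), and Ank2 was higher in fibroblasts by 0.56 (0.23 to 0.89). The fibroblast class pooled 3 clusters of 494, 91 and 6 control and 262, 104 and 37 CFA cells, so its makeup differed between the libraries.

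A list of 36 other genes of the node, paranode, juxtaparanode and internode was read in the same way, and all 36 had at least 50 counts in neurons. Between the libraries none was higher in neurons by 0.5 or more (background 6.16%) and 1 was lower (6.04%), Lgi4, a ligand secreted by Schwann cells, by 0.68 on 103 counts. Among those with at least 200 neuron counts, the differences were highest for Chl1 (0.499, just under the threshold), Rdx (0.40) and Kcna1 (0.39) and lowest for Kcnq3 (−0.29), Kcnk4 (−0.17) and Utrn (−0.17). The median was 0.066.

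By Nefh level, 11 of the 36 were higher in the top bin by at least 1 in both libraries (background 7.02%) and 5 were lower (10.4%). Of the 8 channel genes of the node and initial segment, 6 were higher, among them Scn4b, a sodium channel beta subunit (4.09 and 3.50), and Kcnq3, a subunit of the M-type potassium channel (3.01 and 4.10). Scn8a, the sodium channel of mature nodes, was also higher (2.29 and 3.08) and is named after its values were seen. Of the 8 juxtaparanodal genes, 5 were higher, among them Dlg2 (3.57 and 3.16) and the potassium channel gene Kcna2 (2.52 and 2.54). None of the 5 cytoskeletal partners, 7 genes of microvilli and basal lamina or 8 adhesion genes was. The lowest were Epb41l2 (−1.83 and −3.16), Ezr (−2.22 and −2.05) and Ncam1 (−2.06 and −2.08).

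In 12 of the 36 the highest class was a Schwann cell class in both libraries, namely Epb41l2, Add1, Kcna1, Kcna2, Adam23, Lgi4, Dag1, Utrn, Cadm2, Cadm3, Cadm4 and Chl1. That was 33.3% of the list, against 6.31% of 16221 genes. The list includes genes of Schwann cell microvilli and basal lamina and was chosen with earlier results of these data known. The excess over the background is therefore a description and not a test. In 7 (19.4%) the highest class was neurons, near the background of 20.3%. Among the members, which are not on this list, Ank3 and Gldn were highest in a Schwann cell class. Kcna1 and Kcna2, whose channels lie in the axon at the juxtaparanode, were among the Schwann cell genes. Kcna1 was at 1780 and 2115 CPM in myelinating and 1793 and 2479 CPM in non-myelinating Schwann cells, against 17.1 and 22.4 CPM in neurons. In myelinating Schwann cells 2 of the 24 list genes with at least 50 counts were higher in the CFA library by 0.5 or more (8.33%, background 11.7%) and 3 were lower (12.5%, background 9.96%). In non-myelinating Schwann cells 7 of 23 were higher (30.4%, background 14.9%), among them Cadm2 (1.25), Adam23 (1.16) and Kcna2 (0.87), and 1 was lower, Cadm3 (−0.90; 4.35%, background 16.5%). The summed markers of this class and of myelin differed between the libraries as given above, and their part in these counts was not tested. These Schwann cell counts were added after seeing the data.

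Some genes had profiles much like those of the members over 8 neuron classes and 8 other classes in both libraries (32 points, Pearson correlation of log2(CPM + 1), a description only, since all points come from the same libraries). Sptbn4 was most like Chgb (r = 0.958), Grin1 (0.952) and Panx2 (0.949), and Cntnap2 most like Atpif1 (0.951), Sult4a1 (0.941) and Prkar1b (0.941). Ank2 was most like Nacad (0.926), Apba2 (0.911) and Rab2b (0.908), and Ank3 like Ash2l (0.894), Tex2 (0.894) and Paqr4 (0.893). The best matches of Cntnap1 were Chchd10 (0.883), Pnck (0.882) and Tceal5 (0.878), and those of Gldn were Lmna (0.873), Prx (0.867) and Mme (0.864), of which Prx is itself a marker used to name myelinating Schwann cells. The members with mixed sources had weaker matches, with Nfasc most like Ermp1 (0.853), Pcdh9 (0.849) and Pak7 (0.842), Cntn1 like D630045J12Rik (0.798), Adgrb1 (0.790) and Syt3 (0.786), and Nrcam like Kcnh2 (0.794), Rgs11 (0.777) and Hunk (0.760).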

How the data were processed

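TG cells of 1 control and 1 CFA library were captured with BD Rhapsody and sequenced on an Illumina NovaSeq. The authors deposited UMI counts, 1 value for each gene in each cell. The submitters' processing notes name fastp and the genome build GRCm38, while the aligner, the counter and the annotation are not given in the sources used here. Whether the counting used strand is likewise not given, so reads of overlapping genes could not be told apart.

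Cells with 150 or more genes and no more than 25% of counts from mitochondrial genes were kept, as in the study's methods. Cells of both libraries were clustered with Seurat 5.3.0 in R 4.3.3 (2000 variable genes, 20 principal components, 20 neighbours, resolution 0.8, and 1 for neurons), without the members, the list of 36 other genes and Nefh. A cluster was named from markers that reached 0.25 of their highest cluster level in at least 0.1 of its cells, with at least 3 such markers. The naming rules were set after the markers had been seen. Neuron clusters led by glial genes stayed unnamed. Doublets were scored with Scrublet in scanpy 1.11.5 at an expected rate of 5% and were kept, and leaving out cells with a score above 0.25 was an alternative.

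Counts were summed per class and library, divided by the class total (CPM) and given with exact Poisson intervals. Ratios have exact binomial intervals and shares of cells Clopper-Pearson intervals, computed with scipy 1.17.1, numpy 2.4.6 and pandas 2.3.3 in Python 3.11.15. The intervals and the floor of 3 counts cover counting error only. The code for the intervals was tested on simulated data. Genes with at least 50 counts entered the comparisons of a class, and differences of 0.5 (libraries) and 1 (neuron groups) on the log2 scale were counted. Detection was compared after thinning to 5000 UMIs in neurons and 500 elsewhere, leaving out shallower cells. The members, all lists and the thresholds were chosen with earlier results of these data known. The text names all members, the list genes with the largest differences, and the 3 genes whose profile was most like each member among genes with at least 200 counts.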

Additional observations from a re-analysis of the deposited data

Results flagged for a closer look

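Nfasc differed between the libraries in opposite directions in both Schwann cell classes. It was higher in the CFA library by 0.55 on the log2 scale in myelinating Schwann cells, and in non-myelinating Schwann cells the log2 ratio was −0.83, on 110 control and 16 CFA counts. With 1 library per condition the difference was not tested. In the non-myelinating class the value was −0.002 without a mitochondrial limit and −1.40 with 30 principal components. Both alternatives were clustered anew, and the class then held 1336 and 349 cells and 612 and 195 cells, respectively.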

How the results depend on the processing

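No paired analysis was possible because each condition had 1 library, and for the same reason no library could be left out. The highest non-neuronal class was a Schwann cell class for 4 members, adding Sptbn4 and Nrcam, without a mitochondrial limit. In myelinating Schwann cells the count past 0.5 was 1 (Nfasc) with 30 principal components, lower or higher resolution or every cell weighted equally, and also 1 at higher resolution without interferon-led clusters, an alternative chosen after seeing the data. In non-myelinating Schwann cells it was 1 (Nfasc) with every cell weighted equally. Without a mitochondrial limit it was 3, namely Ank2, Ank3 and Cntnap2, and no longer Nfasc, in a class of 1336 control and 349 CFA cells. In neurons it was 2 (Ank2 and Sptbn4) with neuron classes weighted equally. The count of members higher in NF neurons had no value at lower resolution, where no NF cluster was named.

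Of 237 alternative values of the library ratios, 223 stayed within the counting interval, 14 moved beyond it and 10 changed sign. Of 216 values of the Nefh ratios, 198 stayed within, 18 moved and 2 changed sign. With at least 200 counts, 6.44% of genes in neurons, 15.1% in myelinating and 25.7% in non-myelinating Schwann cells differed by 0.5 or more either way. Members with few counts in Schwann cells, such as Cntn1, Cntnap1 and Sptbn4, are limited by depth.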

Other observations

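The unnamed cluster led by Olig1, Olig2, Gpr17 and Neu4 (13 control and 18 CFA cells) also held Nrcam at 330.0 and 328 CPM from 15 and 19 counts, and Nfasc at 198 and 1104 CPM from 9 and 64 counts. An unnamed neuron cluster of 18 and 3 cells, led by Gm15675, Gm50403 and Gm37376, with Malat1 also among its 10 leading genes, held Ank2 at 2640.4 and 2541 CPM and Ank3 at 1399.8 and 1884 CPM. Mitochondrial counts made up 17.2% and 16.8% of its counts, against 2.42% and 2.66% in all neurons. Its median depth was 12678 and 11101 UMIs, and Malat1 was at 12972 and 5425 CPM. Cell quality may thus bear on these ankyrin levels, and its part was not tested. One NP2 neuron of the CFA library had 4873 CPM of Ank2, the highest value of Ank2 among neurons with at least 10000 UMIs in the named classes and Nefh bins.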
